A study of Mus musculus with 8 samples.

Results

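The 40 genes described here encode proteins of the cell division cycle and of DNA replication, from the G1 cyclins through origin licensing and DNA synthesis to the mitotic kinases, the spindle and the kinetochore, with 2 inhibitors of cyclin-dependent kinases. They were chosen by name: every non-control probe whose gene name was on the list was taken. All 40 genes were found, by 55 probes, among 19994 genes tested and 55681 non-control probes. The study compared 129SV mouse pups that lack claudin-7, a tight junction protein of epithelial cells, with wild-type pups. Intestinal fragments 2 cm long were taken at 3 days of age, and total RNA was hybridised to 8 Agilent 1-colour arrays. Both genotypes were sampled in the small and in the large intestine, untreated, which gives 4 groups of 2 arrays each, numbered 2 and 3. The labels name gene targeting and no tissue to which the knockout was limited, and no layer or cell type was isolated from the fragments as far as they say. The labels do not say which arrays came from one pup, so p-values measure the spread between these samples.

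Cells divide in the gut mainly in the epithelium, in the compartment that becomes the crypts, and after birth also in muscle, neural and connective tissue of the growing wall. D-type and E-type cyclins drive the retinoblastoma protein off E2F factors, which then switch on genes of licensing and DNA synthesis. A later set of genes for mitosis is held off by the DREAM complex and switched on by B-MYB and FOXM1, and many of its promoters carry a CHR element beside CCAAT boxes. Cdkn1a, the gene of p21, is a target of p53 and blocks cyclin-dependent kinases. Most of these transcripts rise and fall within the cycle, so in a tissue they follow both the number of dividing cells and the level per cell. In these bulk samples, fewer dividing cells and less RNA per cell cannot be told apart.

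Levels are given as log2 of the processed signal over each array's own 75th percentile, so a level of 1 lies at 2 times that percentile, and differences are given on the log2 scale with the standard error of the limma fit. A gene passed at a Benjamini-Hochberg adjusted p under 0.05 over all genes tested. All 55 member probes were well above background on all 8 arrays, and 0 member spots were saturated. The 75th percentile lay between 2643 and 3572 signal units, and it was lowest on array 2 of knockout small intestine. Cldn7 fell from 5.89 and 5.93 to 2.21 and 0.94 in small intestine and from 5.70 and 5.56 to 2.08 and 2.16 in large intestine (limma adjusted p of 0.00793 and 0.0338). Whether its probe lies in the deleted part was not checked. Some arrays stood apart from their group: Alb read 5.23 on array 2 of knockout large intestine and at most -4.53 on the others, and Amy2a5 read 2.30 on array 2 of wild-type large intestine and 2.05 on array 3 of knockout large intestine against at most -3.86 elsewhere. The knockout arrays numbered 3 had Xist at -2.42 and -2.43, against at most -6.25 on the other arrays, and the Y-linked Ddx3y at -8.47 or lower against 0.70 to 1.33. By these transcripts the knockout arrays numbered 3 read as female and all others as male. Sex was thus unbalanced between the genotypes in both segments, and its part in the knockout differences was not tested. All arrays lay on 1 slide, where each group filled its own column, so group and slide column cannot be told apart.

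In the small intestine, 1 of the 40 genes changed with the knockout: Nusap1, a microtubule-bundling protein of the spindle, fell by 0.76 on the log2 scale. Over all genes tested, 10% passed in this comparison, 6.48% higher and 3.55% lower. The differences of 31 of the 40 lay below 0, with a median of -0.22, while 57.2% of all genes lay below 0, with a median of -0.10. They ranged from -0.87 for Ube2c to 0.58 for Cdkn2c, and 3 genes (Nusap1, Kif11 and Ube2c) had an unadjusted p under 0.05. Over all 19994 genes tested, 6297 had an unadjusted p that low. Both knockout arrays were below both wild-type arrays for 15 genes and above them for 3, where such groups were seen for 32.7% and 26.6% of all genes. The median rested on array 2 of knockout small intestine. Without it the members' median was -0.03, above that of all genes at -0.12. Then 19 of 40 differences lay above 0, against 9 of 40 with it. Without array 3 of that group the members' median was -0.40, against -0.04 for all genes.

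In the large intestine most differences lay on the other side of 0, and none passed. Of the 40 differences, 35 were above 0, with a median of 0.23, against 50.03% of all genes and a median of 0.00037. Only 0.31% of all genes passed in that comparison, so few calls were made in the large intestine at all. The member with the lowest adjusted p was Tyms, at 0.302, and 3 members (Tyms, Birc5 and Plk1) had an unadjusted p under 0.05. So did 2645 of all 19994 genes. Both knockout arrays lay above both wild-type arrays for 23 of the 40 genes and below them for 2, against 27.7% and 27.6% of all genes. Leaving out any array of the 8 left the median between 0.18 and 0.37. Both medians were nearer 0 with quantile normalization (-0.12 in small and 0.12 in large intestine) and in the authors' deposited normalized values (-0.13 and 0.12). In those versions 9 to 10 of 40 members lay above 0 in small intestine and 32 to 34 in large. The medians of all genes were -0.05 and -0.03 with quantile normalization. The members' medians were not nearer 0 with normexp background correction (-0.22 and 0.23) or with the mean of a gene's probes (-0.22 and 0.26).

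**Figure D1:**
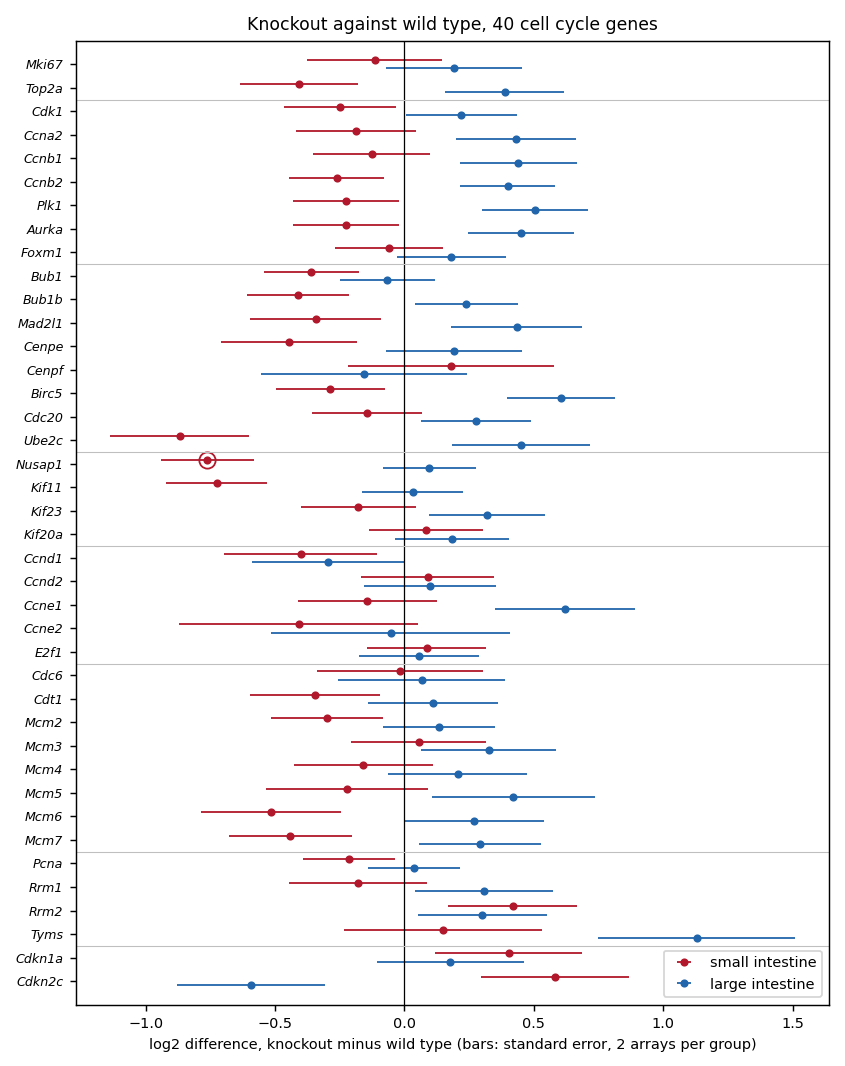
Difference between knockout and wild type for each of the 40 genes (log2 units, x axis) in small intestine (red) and large intestine (blue), with bars for the standard error of the limma fit over 2 arrays per group. The circled point is Nusap1 in small intestine, the 1 gene that passed. Red points lie mostly left of 0 (31 of 40) and blue points mostly right of it (35 of 40).

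The difference of the knockout effect between the segments was tested directly, and 0 of 40 genes passed, where 0.14% of all genes did (0.095% higher and 0.045% lower). The median difference was 0.48 log2 units towards the large intestine for the members and 0.14 for all genes. An unadjusted p under 0.05 was seen for 5173 of all 19994 genes and for 8 of 40 members. These 8 were Ube2c, Nusap1, Birc5, Kif11, Ccnb2, Plk1, Top2a and, in the opposite direction, Cdkn2c. The effects in Ube2c differed by 1.32 ± 0.38 (SE; limma adjusted p = 0.109) and those in Cdkn2c by -1.17 ± 0.41 (limma adjusted p = 0.139). By role, the differences between segments ran from 0.24 (Foxm1) to 0.73 (Plk1) for mitotic cyclins and kinases, from -0.34 (Cenpf) to 1.32 (Ube2c) for kinetochore and checkpoint genes, and from 0.10 (Kif20a) to 0.86 (Nusap1) for spindle genes. They ran from 0.08 (Cdc6) to 0.79 (Mcm6) for licensing, from -0.12 (Rrm2) to 0.98 (Tyms) for DNA synthesis and from -0.03 (E2f1) to 0.76 (Ccne1) for G1 genes. In the fit over both segments, 0 of 40 members passed, while 0.635% of all genes did. An unadjusted p under 0.05 was seen for 0 members and for 3029 of all 19994 genes. The members' median there was 0.04, and the ends were Ccnd1 at -0.35 ± 0.21 and Tyms at 0.64 ± 0.32.

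**Figure D2:**
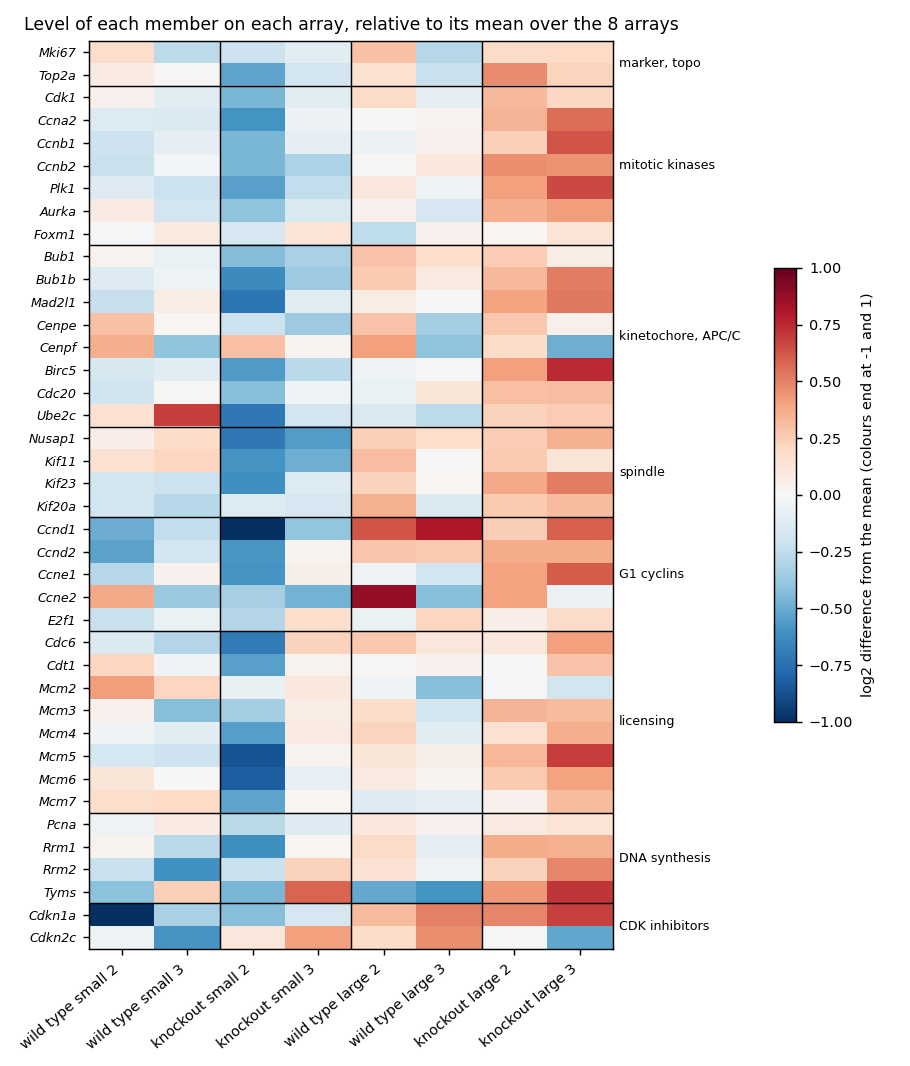
Level of each of the 40 genes on each of the 8 arrays, as the log2 difference from the gene's own mean (red above, blue below, colours end at -1 and 1), with genes in rows by role and arrays in columns by group. Array 2 of knockout small intestine is the bluest column, lowest of the 8 for 28 of 40 genes, and array 3 of knockout large intestine is the reddest, highest for 22 of 40.

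The replicate arrays of knockout small intestine were not alike. They differed in Xist (-6.25 on array 2 and -2.42 on array 3) and in the Y-linked Ddx3y (1.17 and -8.47). The part of that difference in the members' values was not tested. Array 3 was above array 2 for 36 of the 40 genes, with a median gap of 0.35 log2 units, whereas over all genes the median of array 3 minus array 2 was -0.02. Array 2 of that group was the lowest of the 8 arrays for 28 of 40 members and for 14.1% of all genes. At the other end, array 3 of knockout large intestine was the highest for 22 of 40 members and for 20.3% of all genes. Relative to each gene's mean, the members' median was -0.05 and -0.10 on the wild-type small intestine arrays, -0.49 and -0.10 on the knockout ones, 0.15 and 0.01 in wild-type large intestine, and 0.27 and 0.35 in knockout large intestine. Both knockout large intestine arrays were thus above the other 6, and array 2 of knockout small intestine was below them, while its array 3 was nearly level with wild type. The median of all genes, taken the same way, stayed between -0.07 and 0.03 on the 8 arrays. Gene by gene, the median range over the 8 arrays was 0.99 log2 units for members and 1.30 for all genes. The members' ranges ran from 0.39 for Foxm1 to 1.95 for Ccnd1. All genes include some that were not well above background on every array, which no member was.

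The spindle genes held the one call. Nusap1 read 1.51 and 1.62 in wild-type small intestine and 0.72 and 0.88 in knockout small intestine, and 1.61 to 1.79 on the 4 large intestine arrays. Its difference in the small intestine was -0.76 ± 0.18 (SE, n = 2 arrays per group; limma adjusted p = 0.0473; 1.70-fold lower), with a 95% interval of -1.19 to -0.33. Both knockout small intestine arrays lay below the other 6 arrays. The call was close to the threshold: it held in 6 of 17 other settings, with an adjusted p between 0.0311 and 0.214, and leaving out any one of the 8 arrays ended it, although the difference itself stayed between -0.84 and -0.67.

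Kif11, the motor that pushes spindle poles apart, showed the same arrangement without passing. Its levels were -0.83 and -0.76 in wild-type small intestine, -1.57 and -1.47 in knockout small intestine, and -0.97 to -0.67 in large intestine of both genotypes. The knockout difference was -0.73 ± 0.19 in small intestine (limma adjusted p = 0.0591) and 0.03 ± 0.19 in large intestine. Kif23 and Kif20a, motors of the midzone and cytokinesis, had differences of -0.18 ± 0.22 and 0.08 ± 0.22 in small intestine. In large intestine the 4 genes of this group lay between 0.03 (Kif11) and 0.32 (Kif23).

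The promoters of these 2 spindle genes are shown because Nusap1 and Kif11 had the lowest adjusted p among the members in small intestine. The stretches are the 120 bases before the RefSeq start, 5′ to 3′ on the gene's strand (build GRCm38.p6), with CHR letters (TTTGAA) and CCAAT letters on either strand in capitals; Nusap1 lies at chr2:119618178-119618297 and Kif11 at chr19:37376262-37376381.
Nusap1: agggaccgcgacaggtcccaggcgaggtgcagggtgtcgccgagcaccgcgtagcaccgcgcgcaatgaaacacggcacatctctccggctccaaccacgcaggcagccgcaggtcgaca
Kif11: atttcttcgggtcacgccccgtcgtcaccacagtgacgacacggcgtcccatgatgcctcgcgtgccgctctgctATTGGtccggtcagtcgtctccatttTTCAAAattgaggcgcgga
Kif11 has a CCAAT match at -45 to -41 and a CHR match at -19 to -14 from its start, both on the opposite strand. None of the letters searched is in the Nusap1 window.

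Among 8 genes of the kinetochore, the spindle checkpoint and the anaphase-promoting complex, 7 lay below 0 in small intestine (median -0.35) and 6 above 0 in large intestine (median 0.26), and none passed in either. Ube2c, the ubiquitin-conjugating enzyme that works with the anaphase-promoting complex, had the lowest difference of the 40 in small intestine. It read 2.79 and 3.33 in wild-type small intestine, 1.93 and 2.46 in knockout small intestine, 2.49 and 2.38 in wild-type large intestine and 2.87 and 2.89 in knockout large intestine. Its difference was -0.87 ± 0.27 in small intestine (limma adjusted p = 0.0794) and 0.45 ± 0.27 in large intestine (0.507). A second probe of Ube2c gave -1.004 ± 0.28 and 0.40 ± 0.28. Wild-type small intestine was above knockout small intestine on every array, and the order was reversed in large intestine.

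Birc5, the survivin subunit of the chromosomal passenger complex, was at the top of the group in large intestine. Its levels there were 4.44 and 4.49 in wild type and 4.90 and 5.24 in knockout, a difference of 0.61 ± 0.21 (limma adjusted p = 0.309), and its other 2 probes pointed the same way, up to 0.95. In small intestine Birc5 was 4.33 and 4.38 in wild type against 3.92 and 4.22 in knockout, a difference of -0.29 ± 0.21. Bub1 and Bub1b, kinases of the spindle checkpoint, were at -0.36 ± 0.18 and -0.41 ± 0.20 in small intestine, with no overlap between the groups. Cenpf, a kinetochore protein, was the exception at 0.18 ± 0.40 in small and -0.16 ± 0.40 in large intestine, and its arrays numbered 2 lay above those numbered 3 in every group.

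All 7 genes of the group of mitotic cyclins and kinases, which includes their factor Foxm1, lay below 0 in small intestine (median -0.22) and above 0 in large intestine (median 0.43), and 0 of 7 passed in either. The small intestine values ran from -0.26 ± 0.18 for Ccnb2 to -0.06 ± 0.21 for Foxm1, for which a second probe read 0.16. In large intestine Foxm1 was the lowest of the group, at 0.18 ± 0.21. In large intestine Plk1, the kinase that drives entry into and progress through mitosis, was highest: 3.73 and 3.56 in wild type and 4.03 and 4.27 in knockout, a difference of 0.50 ± 0.20 (limma adjusted p = 0.366). Ccna2 (0.43 ± 0.23), Ccnb1 (0.44 ± 0.23), Aurka (0.45 ± 0.21) and Ccnb2 (0.40 ± 0.18) were alike, and for each of them both knockout arrays of large intestine lay above both wild-type arrays. The 3 probes of Ccnb1, the cyclin that activates Cdk1 at mitosis, gave 0.44 to 0.99 there.

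Cdk1, the mitotic kinase itself, differed by -0.25 ± 0.22 in small intestine and 0.22 ± 0.22 in large intestine. Its levels were 2.01 and 1.87 in wild-type and 1.52 and 1.86 in knockout small intestine, so the groups did not overlap, with 1 knockout array far below and the other almost level with wild type. In large intestine they were 2.16 and 1.87 in wild type and 2.30 and 2.18 in knockout.

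Promoters were searched for the letters that these programmes are known for. RefSeq's table (GRCm38.p6) held promoters of 33 of the 40 members, each 250 bases before to 50 after the start; Ccna2, Ccnd1, Ccnd2, Ccne2, Foxm1, Kif20a and Mcm4 were not matched. In these counts and those below, a member counted if any of its promoters matched (36 promoters of 33 members). The share of all promoters was taken per promoter. CHR letters (TTTGAA, either strand) were in 13 of 33 (39.4%) against 17.9% of all 32851 promoters, and CCAAT letters in 24 of 33 (72.7%) against 37.4%. All 13 promoters with CHR letters also had CCAAT letters, a pair held by 6.95% of all promoters. The pair was in 4 of 5 mitotic cyclin and kinase genes, 4 of 8 kinetochore and checkpoint genes, 2 of 3 spindle genes, both Mki67 and Top2a, and 1 of 7 licensing genes. Such matches are a description of the letters and not of binding. The 120 bases before the start are given for Ube2c (chr2:164769809-164769928) and Cdk1 (chr10:69352913-69353032, minus strand), the member lowest in small intestine with the knockout and the central kinase, in the same notation.
Ube2c: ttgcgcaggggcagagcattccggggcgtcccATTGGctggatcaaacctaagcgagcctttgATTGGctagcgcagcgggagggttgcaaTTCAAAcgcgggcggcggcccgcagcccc
Cdk1: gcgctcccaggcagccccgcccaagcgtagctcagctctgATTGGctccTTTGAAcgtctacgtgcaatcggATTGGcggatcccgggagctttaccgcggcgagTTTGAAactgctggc
Both stretches hold CCAAT letters on the opposite strand upstream of CHR letters, and Cdk1 holds each of them at 2 places.

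Mki67, the proliferation marker, did not separate the groups. It read 4.09 and 3.65 in wild-type small intestine, 3.71 and 3.80 in knockout small intestine, 4.21 and 3.63 in wild-type large intestine and 4.11 and 4.11 in knockout large intestine. The wild-type arrays enclosed the knockout arrays in both segments. The difference was -0.12 ± 0.26 in small intestine, with a 95% interval of -0.74 to 0.51. It was 0.19 ± 0.26 in large intestine, with an interval of -0.43 to 0.81. Changes within these intervals thus remained possible. With 2 arrays per group larger differences could also fail to pass, as that of Ube2c did at -0.87 in small intestine. Top2a, the topoisomerase that untangles replicated DNA, was 1.14 and 1.07 in wild-type and 0.53 and 0.86 in knockout small intestine, a difference of -0.41 ± 0.23 (limma adjusted p = 0.274). In large intestine it read 1.21 and 0.83 in wild type against 1.53 and 1.28 in knockout, a difference of 0.39 ± 0.23 (0.503).

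Origin licensing genes load the MCM helicase, whose 6 subunits are Mcm2 to Mcm7, onto DNA with the help of Cdc6 and Cdt1. In small intestine 7 of the 8 lay below 0 (median -0.26) and in large intestine all 8 lay above 0 (median 0.24), and none passed. Mcm6 read 4.66 and 4.54 in wild-type small intestine, 3.71 and 4.46 in knockout small intestine, 4.63 and 4.57 in wild-type large intestine and 4.80 and 4.94 in knockout large intestine. Its difference was -0.52 ± 0.27 in small intestine (limma adjusted p = 0.241) and 0.27 ± 0.27 in large intestine, and array 2 of knockout small intestine lay far below array 3. The same gap between those arrays was seen for Mcm5, at 1.60 and 2.50, and for Mcm7, at 2.73 and 3.27. Mcm3 was the one licensing gene above 0 in small intestine, at 0.06 ± 0.26. In large intestine Mcm5 was highest of the group, at 2.59 and 2.52 in wild type and 2.80 and 3.16 in knockout, a difference of 0.42 ± 0.31. For Cdc6 the differences were -0.02 ± 0.32 and 0.07 ± 0.32, and its second probe read -0.74 ± 0.43 in large intestine.

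Promoter letters of the E2F kind were found mostly in licensing genes. The E2F letters searched (TTTCCCGC, TTTGGCGC and TTTCGCGC, either strand) were in 6 of the 7 licensing promoters matched and in 1 other member, Cdk1, which makes 7 of 33 (21.2%) against 1.85% of all promoters. Mcm6, with 3 such matches, is shown for the 120 bases before its start (chr1:128359706-128359825, minus strand), with E2F and CCAAT letters in capitals; the first 2 E2F matches overlap.
Mcm6: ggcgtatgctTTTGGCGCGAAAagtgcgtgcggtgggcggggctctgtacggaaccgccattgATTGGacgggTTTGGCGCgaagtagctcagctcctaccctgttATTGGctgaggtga
The matches lie at -110 to -103, -106 to -99 and -47 to -40 from the start. Mcm2 was the licensing gene matched without these letters.

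DNA synthesis was represented by Pcna, the sliding clamp, by the ribonucleotide reductase subunits Rrm1 and Rrm2, and by Tyms, which makes thymidylate. In small intestine 2 of the 4 lay below 0 (median -0.02), and in large intestine all 4 lay above it (median 0.31). Pcna hardly varied: its levels ran from 4.39 to 4.80 over the 8 arrays, and its differences were -0.22 ± 0.18 and 0.04 ± 0.18. Rrm2 was above 0 in both segments, at 0.42 ± 0.25 in small intestine (2.98 and 2.60 in wild type, 2.98 and 3.43 in knockout; limma adjusted p = 0.297) and 0.30 ± 0.25 in large intestine. Tyms read -2.16 and -2.24 in wild-type large intestine and -1.21 and -0.93 in knockout large intestine, the widest difference of all members at 1.13 ± 0.38 (2.19-fold; limma adjusted p = 0.302). In small intestine the replicates of Tyms were too far apart to order the genotypes, at -2.05 and -1.41 in wild type and -2.10 and -1.07 in knockout.

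Of 5 G1 genes, Ccnd1 and Ccnd2, which pass growth signals to Cdk4 and Cdk6, Ccne1 and Ccne2, which activate Cdk2, and the factor E2f1, none passed with the knockout. In small intestine 3 lay below 0 and in large intestine 3 above. Ccnd1 was below 0 in both, at -0.40 ± 0.30 (1.79 and 2.04 in wild type, 1.14 and 1.90 in knockout) and -0.30 ± 0.30 (2.92 and 3.09 against 2.53 and 2.89). Ccne1 read 1.80 and 1.66 in wild-type large intestine and 2.25 and 2.46 in knockout large intestine, a difference of 0.62 ± 0.27 (limma adjusted p = 0.389), and a second probe gave 0.67. In small intestine Ccne1 was -0.14 ± 0.27. The ends of the group in small intestine were Ccne2 at -0.41 ± 0.46 and Ccnd2 at 0.09 ± 0.26. E2f1 differed by 0.09 ± 0.23 and 0.06 ± 0.23.

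The 2 inhibitors, Cdkn1a (p21) and Cdkn2c (p18, an inhibitor of Cdk4 and Cdk6), were both above 0 in small intestine, and neither passed. Cdkn2c read 0.18 and -0.36 in wild-type and 0.34 and 0.64 in knockout small intestine, a difference of 0.58 ± 0.29 (limma adjusted p = 0.216). In large intestine it read 0.41 and 0.70 in wild type and 0.22 and -0.29 in knockout, a difference of -0.59 ± 0.29 (0.426), which made it the member lowest in large intestine and highest in small intestine. For Cdkn1a the probe of higher signal, at chr17:29237377-29237436 on build mm9, read 0.93 and 1.67 in wild-type and 1.57 and 1.83 in knockout small intestine. The difference was 0.40 ± 0.28 (limma adjusted p = 0.375), with overlapping groups, and in large intestine it was 0.18 ± 0.28. The small intestine value rested on the wild-type arrays: it was 0.03 without array 2 and 0.78 without array 3 of wild-type small intestine. It was 1.49 (0.0361) with the mean of both Cdkn1a probes.

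A second Cdkn1a probe, singled out after its values were seen, gave another picture. It lies 9391 bases upstream, at chr17:29227986-29228045 on mm9, and the array's annotation gives it to another transcript variant. Its processed signal was 26.4 and 39.0 in wild-type small intestine, 119 and 275 in knockout small intestine, 63.2 and 62.4 in wild-type large intestine and 104 and 70.2 in knockout large intestine. On the log2 scale it rose from -6.88 and -6.38 to -4.48 and -3.64 in small intestine. With each of 25987 probes fitted by itself, of which 8.95% passed in this comparison, the difference was 2.57 ± 0.34 (limma adjusted p = 0.0216). In large intestine it was 0.49 ± 0.34 (0.554), and the difference between the segments, -2.08 ± 0.48, did not pass (0.104). The signal was dim on all arrays. Over 15 other settings the small intestine difference lay between 1.36 and 2.99 and passed in 10. It did not pass within the 2 groups alone (0.112) or without array 3 of wild-type small intestine (0.0703), array 3 of knockout small intestine (0.0819) or either array of wild-type large intestine (0.0660 for each).

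RefSeq lists 2 Cdkn1a starts on GRCm38.p6, 2790 bases apart, and which of them the upstream probe reads is not given in the sources used here. The p53 response element, allowing 1 mismatch and no spacer, was searched after the values were seen. It was in 22 of 32851 promoters (0.067%) and in 1 member, at the upstream Cdkn1a start, at -51 to -32 from it. The 120 bases before each start are shown, upstream first (chr17:29090859-29090978) and then downstream (chr17:29093649-29093768), with the match in capitals.
Cdkn1a, upstream start: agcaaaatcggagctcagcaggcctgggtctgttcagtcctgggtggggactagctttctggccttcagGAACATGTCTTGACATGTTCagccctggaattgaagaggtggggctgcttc
Cdkn1a, downstream start: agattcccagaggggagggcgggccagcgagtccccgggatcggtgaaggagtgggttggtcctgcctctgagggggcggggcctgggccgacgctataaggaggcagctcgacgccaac
None of the letters searched is in the downstream stretch. Among 18 measured p53 target genes, 1 rose and 1 fell in small intestine: Phlda3, an inhibitor of Akt signalling, from 1.18 and 0.79 to 2.53 and 3.25 (1.90 ± 0.29, limma adjusted p = 0.0248), and Perp, a desmosomal protein, by -1.29 ± 0.25 (0.0358). The median of the 18 was 0.16, and 12 of them lay above 0. Over all genes, 6.48% rose and 3.55% fell in that comparison.

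**Figure D3:**
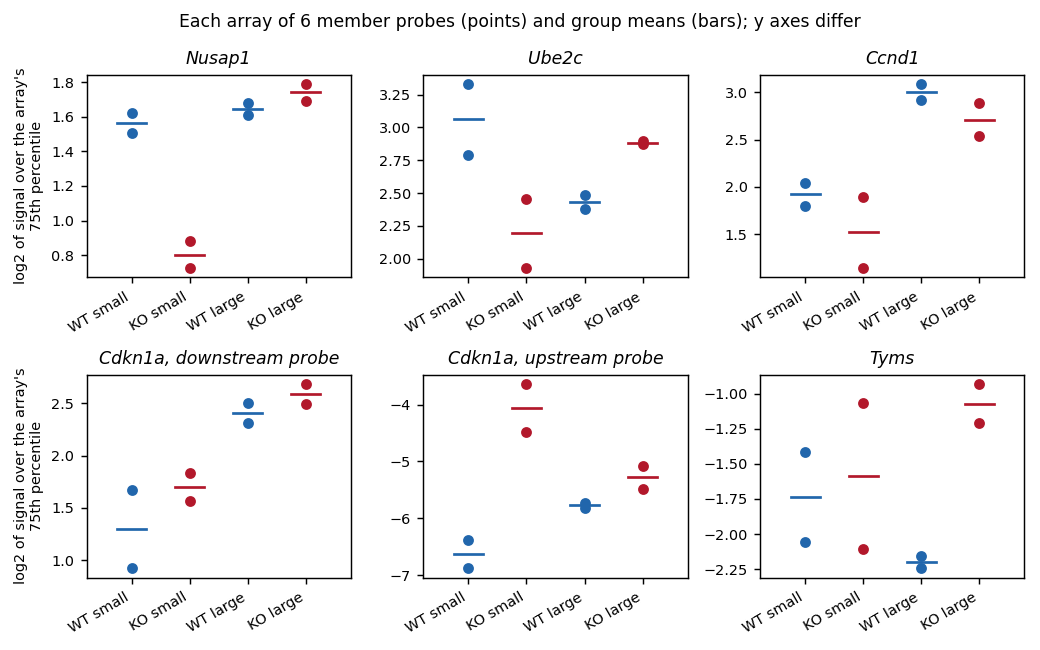
Log2 level over the array's 75th percentile for 6 member probes on each of the 8 arrays (points) with group means (bars), wild type in blue and knockout in red, each panel with its own y axis. In small intestine both knockout arrays lie below wild type for Nusap1 and Ube2c and above it for the upstream Cdkn1a probe. Ccnd1 and the downstream Cdkn1a probe are higher in large than in small intestine of wild type.

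Genes of the same pathways that are not among the 40 were measured as well. Of 38 other replication genes, 1 fell and 0 rose in small intestine, against 3.55% and 6.48% of all genes. Their median was -0.25, and 34 lay below 0. The one that fell was Rfc5, a clamp loader subunit, from 2.66 and 2.56 to 1.89 and 1.74 (-0.80 ± 0.18, limma adjusted p = 0.0457). In large intestine 0 passed, the median was 0.23 and 33 lay above 0. Of 48 other mitotic genes, 0 passed in either segment, with medians of -0.24 (35 below 0) and 0.25 (40 above 0).

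Larger falls were seen among regulators of G1. Of 19 other G1 and pocket protein genes, 4 fell and 0 rose in small intestine, against 3.55% and 6.48% of all genes. Their median was -0.51. E2f8, an E2F factor that represses transcription, fell from 2.56 and 2.41 to 1.13 and 0.75 (-1.54 ± 0.26, limma adjusted p = 0.0292). E2f2, an activating E2F factor, fell from 2.36 and 2.67 to 1.02 and 1.42 (-1.29 ± 0.25, 0.0359), and Cdc25a, the phosphatase that activates Cdk2, from 3.26 and 3.29 to 2.50 and 2.12 (-0.96 ± 0.23, 0.0485). These 3 lay above 0 in large intestine, E2f2 at 0.97 ± 0.25 (0.207), without passing. The proto-oncogene Mycn fell from 2.19 and 2.17 to 1.23 and 0.64 in small intestine (-1.24 ± 0.27, 0.0401). It read 1.52 and 1.16 in wild-type and -0.16 and -0.45 in knockout large intestine (-1.65 ± 0.27, 0.0913), and it passed over both segments at -1.44 ± 0.20 (0.0432). Of 6 other inhibitors of cyclin-dependent kinases, 0 passed with the knockout in either segment.

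Markers of several cell types changed in the small intestine comparison, in which 6.48% of all genes rose and 3.55% fell. In knockout small intestine, 3 of 13 epithelial markers (Elf3, Cdx1 and Cdx2) fell and 0 rose (median -0.41), and of 13 crypt stem and progenitor genes 4 fell (median -0.64): Olfm4, Lgr5, Sox9 and Rnf43. Lgr5, the receptor that marks crypt stem cells, fell by 2.21 on the log2 scale. On the other side, 7 of 10 markers of enteric neurons and glia rose (median 1.89), as did 3 of 8 fibroblast markers (0.996), 4 of 7 macrophage markers (0.98) and 1 of 10 smooth muscle markers (1.55). For T cells, 5 of 7 fell (median -2.48), Cd8a to a level not well above background, at least 6.73-fold lower, and for B cells 2 of 6 fell (-1.08). In knockout large intestine the medians were 0.36 for epithelium, -0.39 for smooth muscle, -0.39 for neurons and glia and -0.36 for fibroblasts, and none of these markers passed. The crypt list had a median of -0.03 there, with 6 of 13 above 0, and 1 rose. That gene, Olfm4, was not well above background in wild type and was so on only 1 knockout array. Lgr5 read 0.47 and 0.15 in wild-type and -0.91 and -1.04 in knockout large intestine, without passing. Over both segments Lgr5 passed, at -1.75 ± 0.25 (limma adjusted p = 0.0450). Of the remaining lists, 1 of 7 neutrophil markers rose in each segment, Fpr1 in small and Ly6g in large intestine. The neutrophil medians were 1.11 in small and 2.42 in large intestine, with 6 of 7 above 0 in each. In small intestine 1 of 6 pancreas markers rose. Over all genes, 0.165% rose and 0.145% fell in large intestine. Of 7 endothelial, 5 erythroid, 5 liver and 8 housekeeping genes, 0 passed with the knockout in either segment.

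Summed over each list, the epithelial signal relative to the 75th percentile was 603 and 670 in wild-type and 611 and 469 in knockout small intestine, and 680 and 674 in wild-type and 764 and 883 in knockout large intestine. The smooth muscle sum was 315 and 172, 483 and 600, 524 and 575, and 534 and 479 in the same order. Neurons and glia summed to 20.9 and 11.9 in wild-type and to 35.0 and 56.4 in knockout small intestine, and fibroblasts to 270 and 210 against 441 and 434. The T cell sum, which Cd4 led at a mean of 6.08 in both groups, was 76.4 and 66.6 in wild-type and 84.1 and 57.1 in knockout small intestine. The T cell sum includes Cd8a, which was well above background on neither array of knockout small intestine. The sum of the 40 members was 247 and 244, 184 and 242, 277 and 258, and 310 and 340. Array 3 of knockout small intestine had the lowest epithelial sum of the 8 and the higher member sum of its group, and array 3 of knockout large intestine was highest in both. The part of these cell types in the members' differences was not tested.

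**Figure D4:**
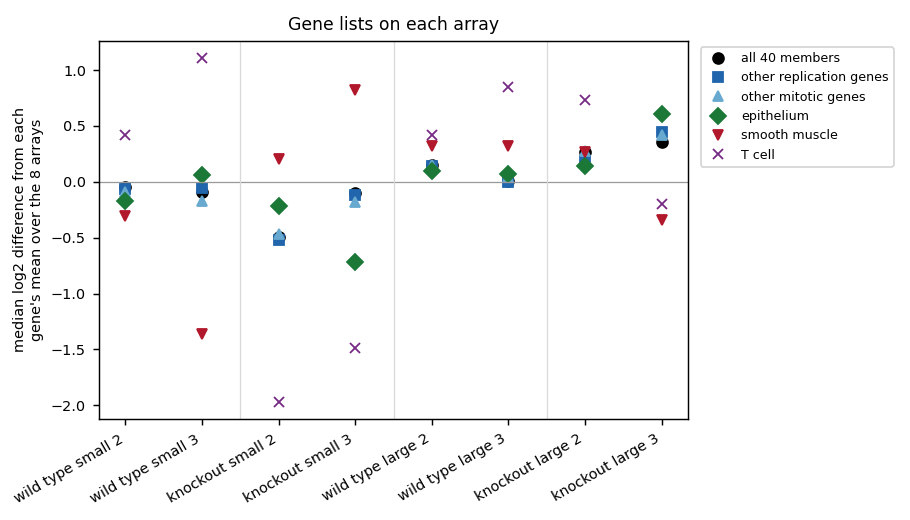
Median log2 difference from each gene's mean over the 8 arrays (y axis) for the 40 members, 38 other replication genes, 48 other mitotic genes and markers of epithelium, smooth muscle and T cells, on each array (x axis). The 3 cell cycle lists stay together. They lie at -0.52 to -0.47 on array 2 of knockout small intestine and at 0.35 to 0.44 on array 3 of knockout large intestine. Epithelial markers rank the 4 groups as the members do, but are lowest on array 3 of knockout small intestine (-0.72). Smooth muscle and T cell markers follow other orders.

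Between segments of wild-type pups, 2 of 40 members were higher in large than in small intestine and 0 lower, where 20% of all genes passed, 10% higher and 9.99% lower. Ccnd1 rose from 1.79 and 2.04 to 2.92 and 3.09 (1.09 ± 0.30, limma adjusted p = 0.0454), and Cdkn1a, by its downstream probe, from 0.93 and 1.67 to 2.31 and 2.50 (1.11 ± 0.28, 0.0389). Ccnd1 promotes progress through G1, and Cdkn1a restrains it. Ccnd2, at 2.93 and 3.27 against 3.74 and 3.73 (0.63 ± 0.26, 0.127), and Mcm2, at 2.15 and 1.94 against 1.69 and 1.31 (-0.55 ± 0.22, 0.121), had an unadjusted p under 0.05. With the 2 that passed, this held for 4 of 40 members, against 7256 of all 19994 genes. Both large intestine arrays were above both small intestine arrays for 16 members and below them for 4, against 34.4% and 35% of all genes. The median was 0.12 for members and 0.0017 for all genes.

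Neither call held under all settings. Ccnd1 passed in 10 of 17 (adjusted p from 0.0192 to 0.202) and Cdkn1a in 9 of 17 (0.0218 to 0.186). Both were lost without either array of wild-type large intestine or either array of knockout large intestine, and without array 2 of wild-type small intestine, where Ccnd1 was 0.96 and Cdkn1a 0.74. Ccnd1 was also lost without array 3 of wild-type small intestine. Ube2c, at -0.63 ± 0.27, was the lowest member and did not pass (0.143), and Rrm2 was at 0.47 ± 0.25, the highest of the DNA synthesis genes, of which Tyms was the lowest at -0.47. The mitotic cyclins and kinases lay between -0.15 (Foxm1) and 0.20 (Plk1), the spindle genes between -0.02 (Kif11) and 0.34 (Kif20a), and the highest kinetochore and licensing genes were Bub1b at 0.26 and Cdc6 at 0.41. Mki67 (0.05 ± 0.26), Pcna (0.06 ± 0.18) and Top2a (-0.08 ± 0.23) lay near 0.

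Among other pathway genes in wild type, E2f8 and Cdc25a were lower in large than in small intestine, by -1.64 ± 0.26 (limma adjusted p = 0.00849) and -1.05 ± 0.23 (0.0251). Cdkn1c (p57), an imprinted inhibitor, read 5.91 and 5.75 in small and 4.42 and 4.58 in large intestine (-1.32 ± 0.21, 0.00827). Cdkn2a, which encodes p16 and p19Arf, was higher in large intestine, at -3.61 and -2.82 against -4.47 and -5.12 (1.58 ± 0.34, 0.0230). Of the 38 other replication genes and the 48 other mitotic genes, 0 passed there, with medians of 0.15 and 0.19. In the same comparison 4 of 10 smooth muscle markers were higher in large intestine (median 1.25) and 2 of 13 epithelial markers (median 0.07). Over all genes, 10% were higher there. The part of these cell types in these values was not tested.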

How the data were processed

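Total RNA of 8 intestinal samples was measured on Agilent 1-colour arrays, and groups were taken from the sample titles. The authors deposited scanner files with spot intensity, background-subtracted by Feature Extraction 10.7.3.1 per the file headers, with probe positions on mm9. They also deposited a table of normalized intensity. Its columns had medians of 158.1 to 160.1 and correlated with their own arrays at 0.991 to 0.995 on the log2 scale, and how its background and scaling were done is not given in the sources used here (per the submitters' processing notes, R 3.3.0 was used).

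Each array's processed signal was put on the log2 scale and the 75th percentile over its 59305 non-control spots was subtracted. Outlier-flagged spots were left out (148 to 312 per array; 302 probes lost). A probe was kept if both arrays of 1 or more groups had it well above background (25987 with a gene name), and the probe with the highest mean stood for each gene (19994 genes). Names came from accessions (26056 probes) or symbols (3200 current, 930 older) in RefSeq's table of GRCm38.p6, or from the file (2407), and 23088 probes had none. All 40 members were matched by symbol. limma 3.58.1, under R 4.3.3 with the package data.table in version 1.17.8, fitted 1 mean per group over the 8 arrays (4 residual degrees of freedom), or genotype and segment as additive terms (5), with empirical Bayes moderation and Benjamini-Hochberg adjustment over all genes. The fit was tested on simulated data. The number of arrays limits the precision. Replicates correlated at 0.980 to 0.991 across genes.

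The 40 members, the role groups and the other lists were chosen with earlier results of these data known, so counts over them were read against all genes and no list was tested as a set. Named are all members that passed and the lowest and highest of each role group (over both segments only those of all 40), the others by range, and up to 4 genes of each further list by smallest p among those that passed. Members named besides these, and the second Cdkn1a probe, were chosen after their values were seen. The alternatives tried were normexp background correction, quantile normalization, the deposited table, other filters, averaging the probes of a gene, a replicate block, a random block, the 2 compared groups alone and leaving out each array.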

Additional observations from a re-analysis of the deposited data

Results flagged for a closer look

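Olfm4, a gene of small intestinal crypt stem cells that is not among the 40, was picked out because its knockout effect differed between the segments by 7.56 ± 0.32 log2 units (limma adjusted p = 0.00184). It read 0.18 and 0.47 in wild-type and -4.64 and -5.05 in knockout small intestine, and -9.27 and -9.27 in wild-type and -6.78 and -6.98 in knockout large intestine. In large intestine it was well above background on neither wild-type array and on 1 of the 2 knockout arrays. The size of that part of the difference is therefore not known.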

How the results depend on the processing

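In small intestine, 1 member passed with the knockout, where 10% of all genes did. The count was 2 with normexp background correction, quantile normalization, the deposited table and the filter on all 8 arrays (Nusap1 and Kif11, both lower). In those settings 12.3% to 14% of all genes passed. It was also 2 with the mean of a gene's probes (Nusap1 lower, Cdkn1a higher), where 9.44% of all genes passed. It was 0 without a background filter, 0 with the replicate block and 0 with only the 2 groups compared. There 1.95%, 5.7% and 0.175% of all genes passed. A random block of genotype and number left it at 1 (9.78% of all genes). The small intestine median was -0.12 with quantile normalization and -0.13 in the deposited table. With arrays left out it ran from -0.40 without array 3 of knockout small intestine to -0.032 without array 2. Without array 2 the median of all genes was -0.12, so the members' median then lay above it. In large against small intestine of wild type, 2 members passed, where 20% of all genes did. The count was 0 without a background filter (11.8% of all genes). It was 1 with the mean of a gene's probes (19.7%) and 1 with only the 2 groups compared (22.4%). The median difference between segments ran from 0.28 to 0.71 with arrays left out. No member passed with the knockout in large intestine, over both segments or in the difference between segments under any setting run (the upstream Cdkn1a probe did so in 1 of 14 for the difference), and no median reversed its direction in the comparisons within a segment. The labels do not settle whether arrays with the same number share a pup or a litter. Deviations of same-numbered arrays correlated across genes at 0.01 to 0.26 between groups; with the replicate block Nusap1 had an adjusted p of 0.0552 in small intestine, and the block changed no other count of members. The filter and the groups left in change how many genes or arrays enter; the cause of the other shifts was not tested.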
